A study of Mus musculus with 18 samples.

Results

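A set of 10 immediate-early and stress-induced genes was followed through 18 RNA-seq libraries of immune cells sorted from mouse tumours. The genes were taken as a list of symbols, Fos, Jun, Junb, Jund, Dusp1, Egr1, Ier2, Nr4a1, Gadd45b and Tsc22d3, out of 46983 genes in each deposited table, and all 10 were found. The tumours were MC38, a mouse colon carcinoma line, grown under the skin of 6-week-old female C57BL/6 mice. Mice received anti-PD-1 plus D18 (below, D18) or anti-PD-1 alone, where anti-PD-1 is an antibody against an inhibitory receptor of T cells and D18 is an agent that the labels give by code name alone. Tumours averaged 100 mm3 when treatment started, and it lasted 2 weeks. Both groups had 200 µg anti-PD-1 in each mouse 2 times a week, and the D18 group had 25 µg D18 in each mouse 1 time a week. Cells were sorted as CD8 T cells, CD4 T helper cells or dendritic cells (below, the CD8, CD4 and DC sorts), and each sort gave 3 D18 and 3 anti-PD-1 libraries. Every mouse had anti-PD-1, so the comparison asks what D18 added to it. The mice were pooled and then divided, which does not tell how the replicates were made. Since nothing states that replicates are separate animals, p-values measure only the spread between these samples, which may be technical.

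Immediate-early genes are transcribed within minutes of a signal, without new protein synthesis, and most of their mRNAs are short-lived. Fos and the Jun proteins pair into AP-1, a transcription factor that growth factors, antigen receptors and stress kinases switch on through MAP kinases, while Egr1 and Nr4a1 encode further transcription factors of the same wave. Dusp1, Gadd45b and Tsc22d3 encode regulators of these pathways: a phosphatase that switches off MAP kinases, a stress sensor that acts on them, and the glucocorticoid-induced leucine zipper protein (GILZ), which binds AP-1 and NF-kappaB. In T cells most of the group is known from antigen stimulation, and in myeloid cells from inflammatory signals.

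The promoters of the 4 tested genes whose treatment groups did not overlap in at least 1 sort are shown so that the letters upstream of their starts can be set side by side. Each runs from 250 bases before the start that RefSeq (GRCm38.p6) gives to 50 after it, on the gene's strand, and capitals mark a motif match. Fos lies at chr12:85473640-85473939 on the plus strand and Gadd45b at chr10:80929841-80930140 on the plus strand. Dusp1 lies at chr17:26508423-26508722 on the minus strand and 1 of 3 Tsc22d3 starts at chrX:140600473-140600772 on the minus strand.
Fos: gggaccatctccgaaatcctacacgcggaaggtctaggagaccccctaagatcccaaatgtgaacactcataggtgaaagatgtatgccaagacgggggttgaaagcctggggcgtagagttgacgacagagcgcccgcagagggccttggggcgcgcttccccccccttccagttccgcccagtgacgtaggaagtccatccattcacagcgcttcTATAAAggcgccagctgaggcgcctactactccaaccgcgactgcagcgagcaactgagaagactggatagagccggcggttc
Dusp1: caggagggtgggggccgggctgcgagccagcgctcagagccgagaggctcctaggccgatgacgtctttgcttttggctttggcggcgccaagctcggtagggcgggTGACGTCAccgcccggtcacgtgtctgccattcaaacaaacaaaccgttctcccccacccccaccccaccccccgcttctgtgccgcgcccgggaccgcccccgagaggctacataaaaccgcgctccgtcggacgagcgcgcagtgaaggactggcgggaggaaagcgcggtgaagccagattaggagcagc
Gadd45b: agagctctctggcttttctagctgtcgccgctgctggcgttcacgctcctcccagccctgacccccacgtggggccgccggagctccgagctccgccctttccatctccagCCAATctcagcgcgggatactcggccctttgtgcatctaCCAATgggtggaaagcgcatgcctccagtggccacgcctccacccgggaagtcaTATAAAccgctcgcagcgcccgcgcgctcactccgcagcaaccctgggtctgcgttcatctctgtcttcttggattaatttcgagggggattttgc
Tsc22d3: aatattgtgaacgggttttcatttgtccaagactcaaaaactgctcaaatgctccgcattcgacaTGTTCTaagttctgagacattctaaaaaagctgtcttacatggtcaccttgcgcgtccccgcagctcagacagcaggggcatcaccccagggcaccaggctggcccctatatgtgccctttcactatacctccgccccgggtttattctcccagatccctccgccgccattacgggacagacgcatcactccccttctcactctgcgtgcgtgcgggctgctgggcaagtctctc
Promoter entries were found for 8 of the 10 genes (not Egr1 and Ier2), 10 entries in all, and 6 motifs were searched on both strands. The cyclic AMP element TGACGTCA was found in Dusp1, 143 bases before the start, and in 1.79% of all 32851 promoters. The glucocorticoid receptor half-site, AGAACA, was found, in its other-strand letters, in the Tsc22d3 promoter shown, 185 bases before the start, and in 19.0% of all promoters. TATAAA stood 33 bases before the start in Fos and 46 in Gadd45b, was also found in Junb, and occurred in 13.6% of all promoters. CCAAT was found in Gadd45b at 139 and 100 bases before the start, in Jun and in Junb, and in 37.4% of all promoters. The AP-1 site TGANTCA and the CArG box were found in 0 of the 10 entries, and in 7.81% and 1.63% of all promoters. Sites outside these windows, and any site of Egr1 or Ier2, were not searched. No match overlapped another in the promoters shown. In mm10 the genes themselves span chr12:85473890-85477273 (Fos), chr17:26505590-26562128 (Dusp1), chr10:80930073-80932204 (Gadd45b) and chrX:140539528-140600659 (Tsc22d3), per the GENCODE annotation. The RefSeq start of Dusp1 lies well inside its GENCODE span, so the 2 annotations put the start of this gene at different places.

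The libraries were shallow, with 11170 to 266392 reads assigned to genes, and a count of 0 allows up to 3 reads (counting error only, since the reads carry no molecular identifiers). DC D18 replicate 2 was the shallowest and also held the most neutrophil marker reads, 1522 CPM (read counts scaled to a library total of 1000000) over 6 markers. Replicates 1 and 2 of anti-PD-1 in all 3 sorts held no read of 3 mitochondrial genes, mt-Atp6, mt-Co2 and mt-Co3, while the other 12 libraries did. This split was seen in the files and is named in no label, and it runs largely with the treatment, so it cannot be told apart from D18 except against anti-PD-1 replicate 3. The sorts were not pure: Cd3e, a T cell receptor subunit, had 23, 10 and 41 reads in the CD4 D18 libraries, against 0, 1 and 45 in the CD4 anti-PD-1 libraries. Cd8a had 83 reads and Cd4 had 2 in CD4 D18 replicate 3. Flt3, which marks dendritic cells, had 13, 1 and 3 reads in the DC D18 libraries, against 0 in each DC anti-PD-1 library, and the DC replicates numbered 3 held 69 Cd3e reads with D18 and 34 with anti-PD-1. Summed over 16 genes, monocyte and macrophage markers reached 5428, 5879 and 24553 CPM in CD8 D18 libraries, against 28117, 22592 and 36678 CPM in CD8 anti-PD-1 libraries. The same sum was 8352, 26448 and 25536 CPM in CD4 D18 libraries, against 43622, 25118 and 18689 CPM in CD4 anti-PD-1 libraries, and 28645, 12713 and 26882 CPM in DC D18 libraries, against 44200, 18705 and 35679 CPM in DC anti-PD-1 libraries. Summed over 13 genes, dendritic cell markers reached 1003, 4328 and 5270 CPM in CD8 D18 libraries, against 895, 1381 and 7779 CPM in CD8 anti-PD-1 libraries. That sum was 639, 2215 and 5980 CPM in CD4 D18 libraries, against 6672, 12032 and 4826 CPM in CD4 anti-PD-1 libraries, and 6615, 2865 and 5204 CPM in DC D18 libraries, against 9735, 9834 and 5654 CPM in DC anti-PD-1 libraries. Its highest value thus lay in CD4 anti-PD-1 replicate 2, above every DC library. That library had 677 reads of H2-Aa, which also had 349 in CD8 D18 replicate 2, and 0 of Flt3, Zbtb46 and Xcr1. The sum alone therefore does not show that the library held dendritic cells. T cell markers, 12 genes, came to 5445, 5906 and 3248 CPM in CD4 D18 libraries, against 26.4, 132 and 5214 CPM in CD4 anti-PD-1 libraries. B cell, NK cell and tumour epithelium or fibroblast markers reached at most 530, 286 and 269 CPM in any library. In bulk RNA, fewer cells of a type and less RNA of a gene per cell cannot be told apart, and the part of these other cells in the results below was not tested.

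Fos was the most abundant of the 10 genes and Tsc22d3 the least, by the median over 18 libraries of CPM per kilobase of exon. That median level was 365 for Fos, 219 for Junb, 127 for Ier2, 118 for Gadd45b and 117 for Dusp1. It was 50.2 for Egr1, 37.0 for Jun, 24.9 for Jund, 24.7 for Nr4a1 and 22.8 for Tsc22d3. By group means per kilobase the order varied: Junb stood above Fos in CD8 D18 libraries (376 against 266), Ier2 and Gadd45b did so in DC D18 libraries (182 and 163 against 150), and Tsc22d3 was the lowest in the 3 D18 groups and in no anti-PD-1 group. Reads over the 18 libraries ran from 119 for Jund to 2140 for Fos, and 3 genes were at 0 in some libraries: Jund in 5, Nr4a1 in 1 and Tsc22d3 in 1. 4 of the genes share their locus with another: Jun with Junos (15 reads over the 18 libraries), Junb with Prdx2 (249), Jund with Gm11175 (0) and Dusp1 with Ergic1 and Gm8225 (79), and without strand the reads of overlapping parts cannot be told apart.

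**Figure D1:**
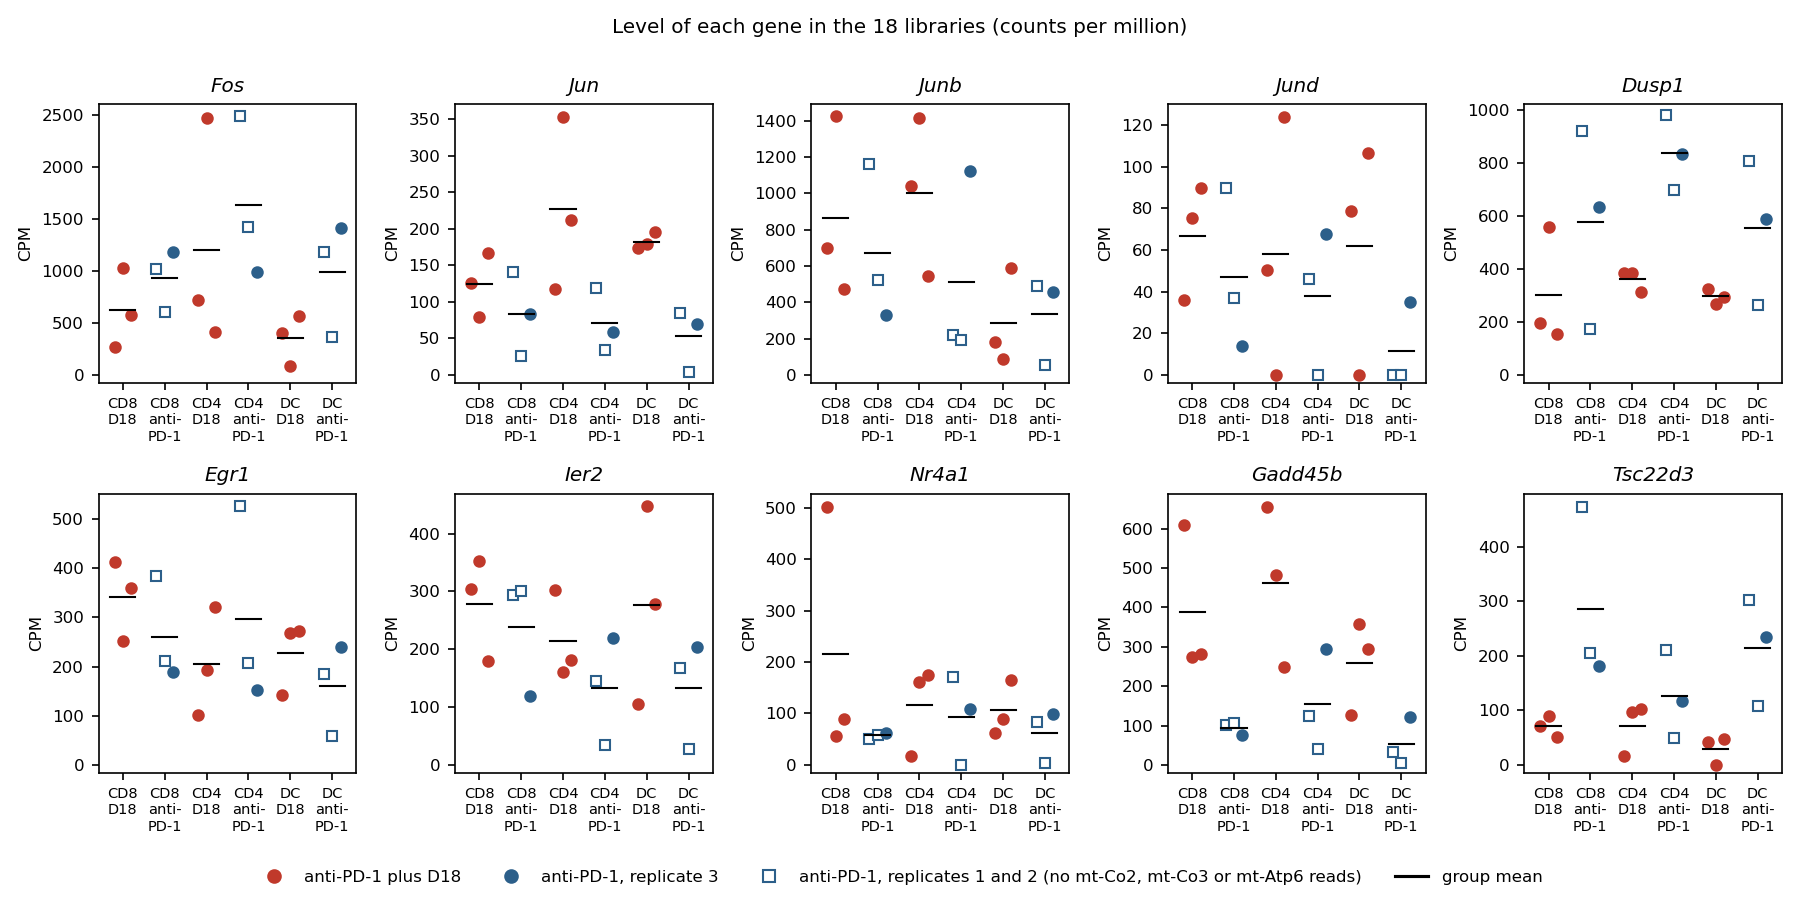
CPM (vertical axis, linear) of each of the 10 genes in each library, by sort and treatment, with D18 left of anti-PD-1; points are libraries, lines group means, and open squares the 6 anti-PD-1 libraries without mt-Co2, mt-Co3 and mt-Atp6 reads. The Gadd45b points of CD8 D18 lie between 274 and 609 CPM, above all 3 CD8 anti-PD-1 points, and the Tsc22d3 points of CD8 D18 lie between 51.3 and 90.1 CPM, below all 3.

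Across sorts the levels are described in CPM only, since each table was normalised by itself, and no test was run. Fos had its lowest group mean in DC D18 libraries (352 ± 242 CPM, SD, n = 3) and its highest in CD4 anti-PD-1 libraries (1633 ± 768 CPM). Gadd45b spanned more, 461 ± 205 CPM in CD4 D18 libraries and 53.6 ± 61.6 CPM in DC anti-PD-1 libraries, and its 3 D18 groups stood above its 3 anti-PD-1 groups in order of means. Tsc22d3 had the widest span, 29.7 ± 25.9 CPM in DC D18 libraries and 287 ± 162 CPM in CD8 anti-PD-1 libraries, and its 3 D18 groups stood below its 3 anti-PD-1 groups. Dusp1 was split by treatment in the same order, with 296 ± 28.3 CPM in DC D18 libraries at the low end and 839 ± 141 CPM in CD4 anti-PD-1 libraries at the high end. Jun, Jund and Nr4a1 were split as Gadd45b was, with the 3 D18 means above the 3 anti-PD-1 means. How many of all genes had means split in this way was not counted, so these orders are a description only. Jund was at 0 reads in 5 libraries, and the Nr4a1 mean in CD8 D18 libraries (216 ± 248 CPM) was raised by 1 library at 502 CPM. Egr1 and Ier2 spanned least, with highest group means 2.12 and 2.10 times their lowest. Among neighbours in these orders, the libraries failed to overlap only for Jun (DC D18 above CD8 D18) and Tsc22d3 (CD8 D18 above DC D18), and every other neighbouring pair of groups overlapped. The share of all genes with such gaps was not counted. Tsc22d3 had 8, 0 and 8 reads in DC D18 libraries, and that 0 allows up to 269 CPM, above every CD8 D18 value.

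Summed over the 10 genes the level overlapped between treatments in every sort. Its make-up is given here by the share of Fos. The sum was 3279 ± 884 CPM in CD8 D18 and 3249 ± 1246 CPM in CD8 anti-PD-1 libraries, and 3920 ± 1600 CPM in CD4 D18 and 3893 ± 1176 CPM in CD4 anti-PD-1 libraries. In the DC sort it was 2080 ± 639 CPM with D18 and 2562 ± 1445 CPM with anti-PD-1 (SD, n = 3 each). CPM over reads that are not mitochondrially encoded gave CD4 sums of 4623, 5881 and 3383 with D18, against 8397, 8294 and 5074 with anti-PD-1. On that scale CD8 sums were 3518, 4430 and 3235 against 5323, 2620 and 3919. DC sums were 2423, 2092 and 3486 against 3411, 3180 and 4452. The treatments overlapped there too, but the near-equal CD4 means held only with mitochondrial reads counted. Fos took 8.33%, 24.6% and 23.8% of the reads of the 10 genes in CD8 D18 libraries, against 22.0%, 26.8% and 41.1% in CD8 anti-PD-1 libraries. Its share was 21.2%, 43.3% and 15.7% in CD4 D18 libraries, against 49.4%, 53.0% and 25.1% in CD4 anti-PD-1 libraries. In the DC sort it was 24.4%, 5% and 20.2% with D18, against 35.4%, 41.2% and 40.7% with anti-PD-1, and only there did the groups not overlap. The 5% is 1 of 20 reads, in the shallowest library.

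**Figure D2:**
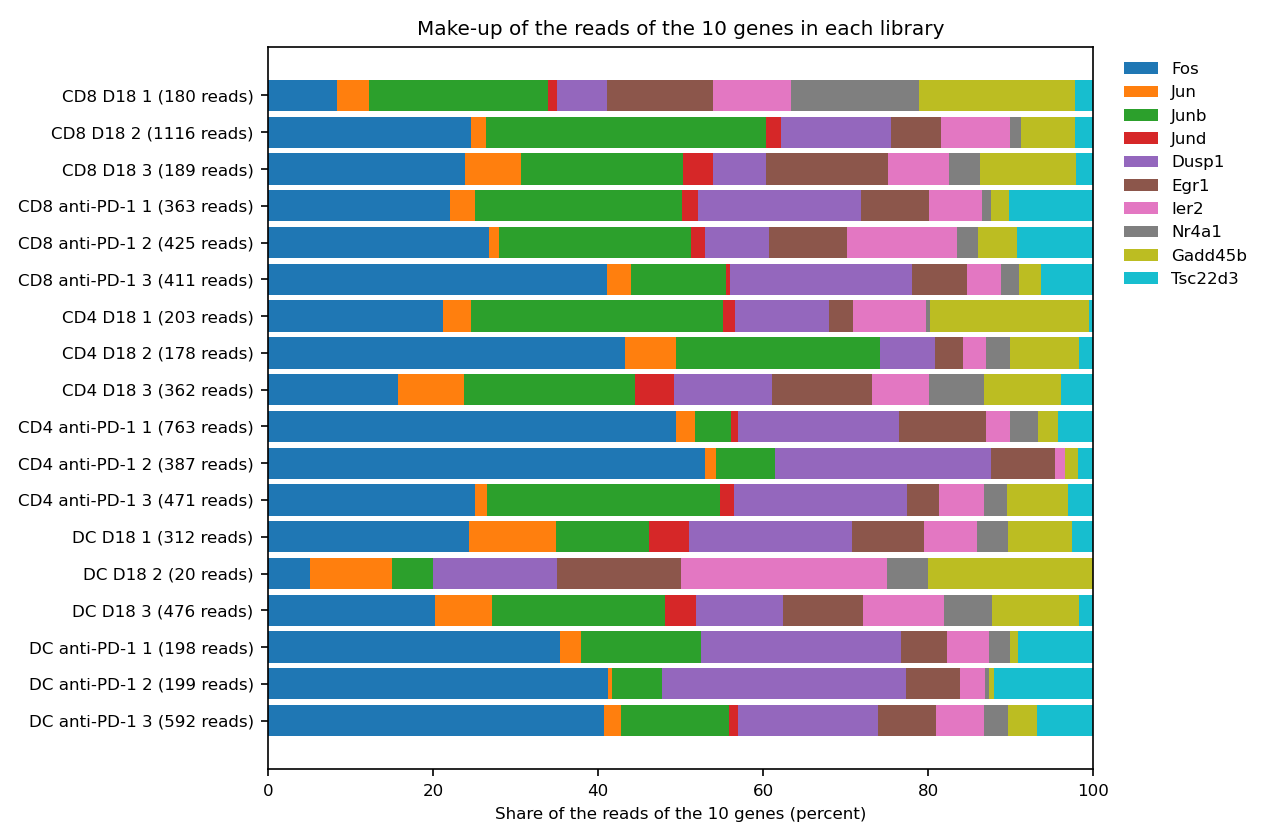
Share of the reads of the 10 genes that each gene took (horizontal axis, percent, stacked to 100) in each library, with D18 above anti-PD-1 in each sort and the number of reads in brackets. Fos took 15.7% to 43.3% in the CD4 D18 bars and 25.1% to 53.0% in the CD4 anti-PD-1 bars, and the Tsc22d3 segments of the DC D18 bars are narrower than those of the DC anti-PD-1 bars.

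Changes were tested in each sort with limma across all genes that averaged at least 10 normalised reads, which are reads divided by the size factor of the library, on the scale log2(normalised reads + 1). This scale understates the change of low genes. The filter passed 9 of the 10 genes in the CD8 sort (not Jund), 7 in the CD4 sort (not Jund, Nr4a1 and Tsc22d3) and 7 in the DC sort (not Jun, Jund and Nr4a1). Some passed only through the treatment in which they were higher, as Tsc22d3 did in the CD8 and DC sorts and Gadd45b in the DC sort. No gene of the list passed an adjusted p of 0.05 in any sort, nor did any of the 1569, 966 and 886 genes tested in the CD8, CD4 and DC sorts, a background of 0%; limma-voom called 0 as well. At an unadjusted p under 0.05 the list held 2 of 9 genes in the CD8 sort, 1 of 7 in the CD4 sort and 1 of 7 in the DC sort, beside 8.29%, 10.4% and 6.88% of all genes tested. With the replicate number as a block, which pairs the samples in the CD8 sort, 20 genes were called there, none of the list. Without CD8 D18 replicate 3 the CD8 sort gave 2 calls, and without CD4 anti-PD-1 replicate 3 the CD4 sort gave 19, again none of the list. The median log2 change of the genes tested was 0.31 in the CD8 sort, 0.36 in the CD4 sort and -0.51 in the DC sort, beside medians over all genes of -0.03, 0.03 and -0.65. In the DC sort 69.1% of all genes tested were lower with D18.

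Groups without overlap in normalised reads, that is all 3 D18 libraries on 1 side of all 3 anti-PD-1 libraries, were counted among the genes tested. The CD8 sort had 1 such gene of the list higher with D18 (Gadd45b) and 1 lower (Tsc22d3) of 9, beside 6.88% higher and 7.65% lower over all genes. The CD4 sort had 0 higher and 1 lower (Dusp1) of 7, beside 5.28% and 9.21%. The DC sort had 1 higher (Gadd45b) and 3 lower (Fos, Dusp1 and Tsc22d3) of 7, beside 4.18% and 19.9%. In CPM, Fos and Dusp1 of the DC sort overlapped through DC anti-PD-1 replicate 2, and Tsc22d3 of the CD4 sort through CD4 anti-PD-1 replicate 2, libraries in which mitochondrial transcripts took 71.9% and 67.7% of the reads.

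**Figure D3:**
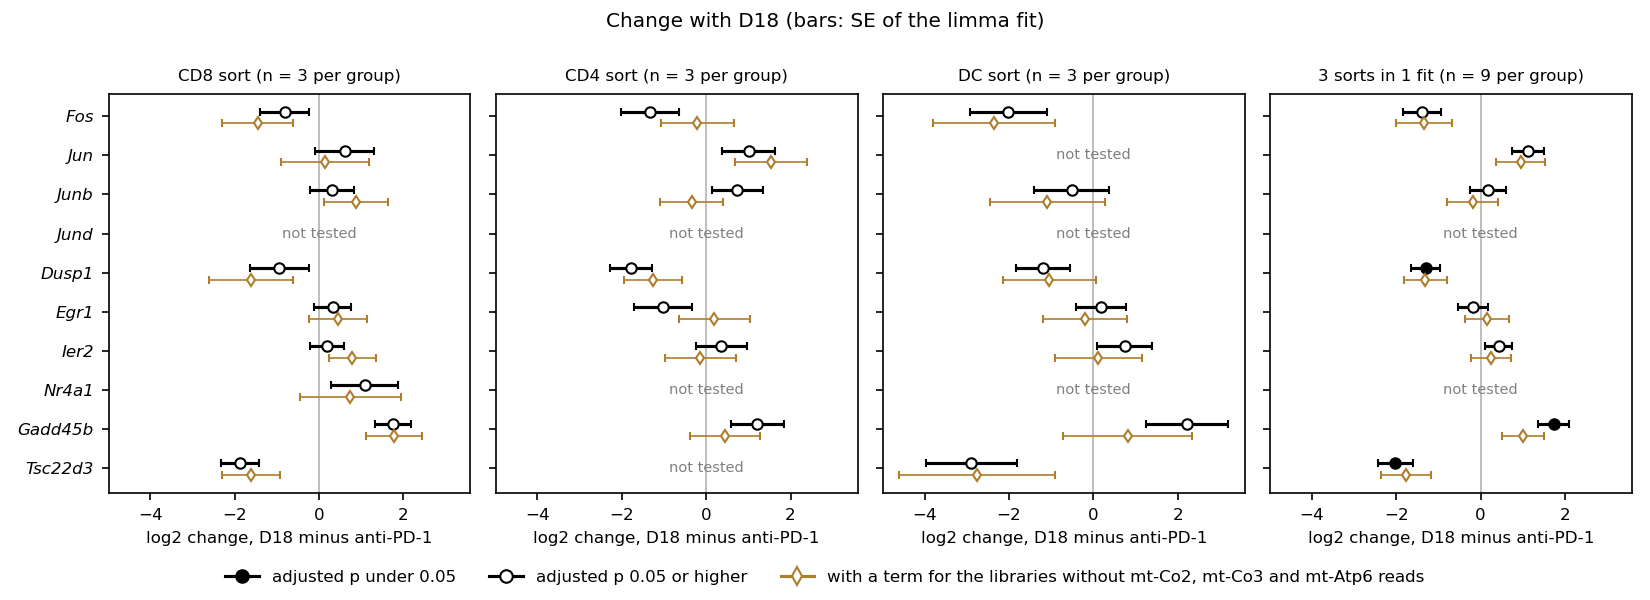
Log2 change, D18 minus anti-PD-1 (horizontal axis), of each gene in each sort and in 1 fit of all 3 sorts; circles are the limma estimate with its SE, diamonds the estimate with a term for the libraries without mt-Co2, mt-Co3 and mt-Atp6 reads. Filled circles (Dusp1, Gadd45b and Tsc22d3 in the last panel) have an adjusted p under 0.05; Gadd45b lies right of 0 and Tsc22d3 and Dusp1 left of 0 in every panel where they were tested.

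Fos, the partner of the Jun proteins in AP-1, was lower on average with D18 in all 3 sorts and passed the test in none. It had 15, 274 and 45 reads in CD8 D18 libraries, against 80, 114 and 169 in CD8 anti-PD-1 libraries. Scaled to the size factors this is 28.0, 93.8 and 75.8 normalised reads with D18, against 108, 63.3 and 162 with anti-PD-1. The groups overlapped, with the lowest value in D18 replicate 1, and the limma log2 change was -0.81 ± 0.58 (SE, adjusted p = 0.694), which was -0.29 without that library. CD4 D18 libraries had 43, 77 and 57 Fos reads (60.7, 144 and 32.9 normalised), against 377, 205 and 118 (263, 237 and 76.7 normalised) in CD4 anti-PD-1 libraries. Both anti-PD-1 libraries with at most 1 Cd3e read were the highest. They also had the highest dendritic cell marker sums of the sort, with 2 and 0 Flt3 reads. Without those libraries the change of -1.34 ± 0.68 (limma, adjusted p = 0.478) became -0.21 ± 0.96. Fos had 76, 1 and 96 reads in DC D18 libraries (41.2, 4.81 and 45.9 normalised), against 70, 82 and 241 (74.1, 86.5 and 114 normalised) in DC anti-PD-1 libraries. All DC D18 values lay below all DC anti-PD-1 values, with a change of -2.01 ± 0.91 (limma, adjusted p = 0.551), which was -1.03 without the shallow DC D18 replicate 2.

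The 3 Jun genes gave no call either, and their reads were fewer. Jun, the founding member of the family, had 7, 21 and 13 reads in CD8 D18 libraries against 11, 5 and 12 in CD8 anti-PD-1 libraries. In the CD4 sort it had 7, 11 and 29 reads with D18 against 18, 5 and 7 with anti-PD-1. Both pairs overlapped in normalised reads, with limma changes of 0.61 ± 0.70 in the CD8 sort and 1.01 ± 0.63 in the CD4 sort (adjusted p = 0.782 and 0.577). DC D18 libraries had 33, 2 and 33 Jun reads (17.9, 9.63 and 15.8 normalised), against 5, 1 and 12 (5.30, 1.06 and 5.68 normalised) in DC anti-PD-1 libraries. These groups did not overlap, but Jun averaged under 10 there and was not tested.

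Junb, which can hold back Jun in some settings and is strongly induced in activated T cells, had 39, 379 and 37 reads in CD8 D18 libraries against 91, 99 and 47 in CD8 anti-PD-1 libraries. CD4 D18 libraries had 62, 44 and 75 Junb reads, against 33, 28 and 133 in CD4 anti-PD-1 libraries, and DC D18 libraries had 35, 1 and 100, against 29, 12 and 78 in DC anti-PD-1 libraries. The groups overlapped in all 3 sorts. Changes were 0.31 ± 0.53, 0.74 ± 0.61 and -0.51 ± 0.88 in the CD8, CD4 and DC sorts (limma, adjusted p = 0.859, 0.658 and 0.790). The CD4 value turned to -0.34 without the libraries with at most 1 Cd3e read, and the DC value to 0.30 without DC D18 replicate 2. Jund, the Jun protein that is made more steadily, was too low to test, with 2, 20 and 7 reads in CD8 D18 against 7, 7 and 2 in CD8 anti-PD-1 libraries. It had 3, 0 and 17 in CD4 D18 against 7, 0 and 8 in CD4 anti-PD-1 libraries, and 15, 0 and 18 in DC D18 against 0, 0 and 6 in DC anti-PD-1 libraries. The normalised reads of Jund overlapped between treatments in every sort.

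Egr1, a zinc finger factor of the first wave after MAP kinase signals, had 23, 67 and 28 reads in CD8 D18 libraries against 30, 40 and 27 in CD8 anti-PD-1 libraries. The CD4 sort gave 6, 6 and 44 Egr1 reads with D18 against 80, 30 and 18 with anti-PD-1, and the DC sort 27, 3 and 46 with D18 against 11, 13 and 41 with anti-PD-1. The treatments overlapped in all 3 sorts, with changes of 0.32 ± 0.44, -1.02 ± 0.69 and 0.18 ± 0.59 in the CD8, CD4 and DC sorts (limma, adjusted p = 0.813, 0.609 and 0.893). The CD4 change of Egr1 turned to 0.19 without the libraries with at most 1 Cd3e read. Ier2, an early nuclear protein of immediate-early type, had 17, 94 and 14 reads in CD8 D18 against 23, 57 and 17 in CD8 anti-PD-1 libraries. It had 18, 5 and 25 in CD4 D18 against 22, 5 and 26 in CD4 anti-PD-1 libraries, and 20, 5 and 47 in DC D18 against 10, 6 and 35 in DC anti-PD-1 libraries. Ier2 overlapped everywhere and had the smallest change of the genes tested in the CD8 and CD4 sorts, 0.19 ± 0.41 and 0.36 ± 0.60, with 0.74 ± 0.65 in the DC sort (limma, adjusted p = 0.889, 0.876 and 0.616). The DC value of Ier2 was 0.12 with a term for the libraries without mt-Co2, mt-Co3 and mt-Atp6 reads.

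Nr4a1, the orphan nuclear receptor NUR77 that T cell receptor signals switch on, was low in most libraries. It had 28, 15 and 7 reads in CD8 D18 libraries against 4, 11 and 9 in CD8 anti-PD-1 libraries. The high value of 502 CPM in CD8 D18 replicate 1 stood apart from 56.3 and 89.8 CPM in the other CD8 D18 libraries and from 51.1 to 62.7 CPM with anti-PD-1. The limma change was 1.09 ± 0.79 (adjusted p = 0.701) with overlapping groups, and it was 0.22 at the lowest when 1 library was left out. CD4 D18 libraries had 1, 5 and 24 Nr4a1 reads against 26, 0 and 13 in CD4 anti-PD-1 libraries, and DC D18 libraries had 12, 1 and 28 against 5, 1 and 17 in DC anti-PD-1 libraries, too few to test.

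Dusp1 encodes the phosphatase that removes the activating phosphates from p38 and JNK. In normalised reads it was lower with D18 in the CD4 and DC sorts without overlap, while in CPM its DC groups overlapped. CD4 D18 libraries had 23, 12 and 43 Dusp1 reads (32.5, 22.5 and 24.8 normalised), against 149, 101 and 99 (104, 117 and 64.3 normalised) in CD4 anti-PD-1 libraries. All D18 values lay well below the lowest anti-PD-1 value, that of replicate 3, and the limma log2 change was -1.77 ± 0.50 (unadjusted p = 0.00517, adjusted p = 0.453). It stayed between -2.03 and -1.60 when any 1 library was left out. Without the 2 libraries with at most 1 Cd3e read it was -1.26 ± 0.77. Those libraries also had the highest CD4 sums of dendritic cell markers, with 2 and 0 Flt3 reads. DC D18 libraries had 62, 3 and 50 reads (33.6, 14.4 and 23.9 normalised), against 48, 59 and 101 (50.8, 62.3 and 47.8 normalised) in DC anti-PD-1 libraries. The DC change was -1.20 ± 0.64 (limma, adjusted p = 0.551), beside a median of -0.65 over all genes tested there. It was -0.89 without DC D18 replicate 2, and -1.04 ± 1.10 with a term for the libraries without mt-Co2, mt-Co3 and mt-Atp6 reads. In the CD8 sort the reads were 11, 149 and 12 with D18 against 72, 33 and 91 with anti-PD-1. There the groups overlapped through anti-PD-1 replicate 2 (18.3 normalised reads), with a change of -0.94 ± 0.70 (limma, adjusted p = 0.707). It was -1.70 without that library and -0.52 without CD8 anti-PD-1 replicate 1.

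Gadd45b, a stress sensor that activates the p38 and JNK branch through MAP kinase kinase kinases and is a target of NF-kappaB, was higher with D18 in the CD8 and DC sorts without overlap. CD8 D18 libraries had 34, 73 and 22 reads (63.6, 25.0 and 37.1 normalised), against 8, 20 and 11 (10.8, 11.1 and 10.6 normalised) in CD8 anti-PD-1 libraries. The 3 anti-PD-1 values were nearly equal and lay below every D18 value, with a limma log2 change of 1.76 ± 0.43 (unadjusted p = 0.00293, adjusted p = 0.534). With the replicate block the adjusted p was 0.0589, and with a term for the libraries without mt-Co2, mt-Co3 and mt-Atp6 reads the change was 1.79 ± 0.67. Gadd45b had 24, 4 and 50 reads in DC D18 libraries (13.0, 19.3 and 23.9 normalised), against 2, 1 and 21 (2.12, 1.06 and 9.94 normalised) in DC anti-PD-1 libraries. The lowest DC values were those of anti-PD-1 replicates 1 and 2. The change was 2.22 ± 0.98 (limma, adjusted p = 0.551) and 0.81 ± 1.52 with the same term. CD4 D18 libraries had 39, 15 and 34 reads (55.1, 28.1 and 19.6 normalised), against 19, 6 and 35 (13.3, 6.94 and 22.7 normalised) in CD4 anti-PD-1 libraries. These overlapped through replicate 3 of each, with a change of 1.22 ± 0.63 (limma, adjusted p = 0.478) that was 0.44 with the same term.

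Tsc22d3, which encodes GILZ and is a standard readout of glucocorticoid receptor activity, was lower on average with D18 in all 3 sorts. CD8 D18 libraries had 4, 24 and 4 reads (7.48, 8.21 and 6.74 normalised), against 37, 39 and 26 (49.9, 21.6 and 25.0 normalised) in CD8 anti-PD-1 libraries. The D18 values were nearly equal and lay below every anti-PD-1 value, with a limma log2 change of -1.88 ± 0.45 (unadjusted p = 0.00250, adjusted p = 0.534). The replicate block gave an adjusted p of 0.0711. With a term for the libraries without mt-Co2, mt-Co3 and mt-Atp6 reads the CD8 change was -1.62 ± 0.69. DC D18 libraries had 8, 0 and 8 reads (4.34, 0 and 3.82 normalised), against 18, 24 and 40 (19.1, 25.3 and 18.9 normalised) in DC anti-PD-1 libraries. The change of -2.89 ± 1.07 (limma, unadjusted p = 0.0254, adjusted p = 0.551) was -2.11 without DC D18 replicate 2, where 0 reads allow up to 269 CPM. With the same term the DC change was -2.75 ± 1.84. CD4 D18 libraries had 1, 3 and 14 reads (1.41, 5.63 and 8.08 normalised), against 32, 7 and 14 (22.4, 8.09 and 9.09 normalised) in CD4 anti-PD-1 libraries. The CD4 groups were apart only by 8.08 against 8.09 and overlapped in CPM, and the gene averaged under 10 there and was not tested.

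A single limma fit of all 18 libraries, with the sort as a term and 1 D18 coefficient, was added after the data had been examined. It counts each library as a separate sample, although nothing states that the sorts of a treatment came from different mice. It called 3 of the 8 genes of the list that passed its filter: Tsc22d3 and Dusp1 fell and Gadd45b rose with D18. The background was 3.36% of 1132 genes, 0.53% higher and 2.83% lower, and the median over all genes was -0.20. Tsc22d3 averaged 7.48, 5.04 and 2.72 normalised reads in the CD8, CD4 and DC D18 groups. It thus passed the filter through its anti-PD-1 libraries. Gadd45b averaged 10.8, 14.3 and 4.37 in the anti-PD-1 groups, against 41.9, 34.3 and 18.7 with D18. The list was chosen with earlier results of these data known. Its shares beside this background, and beside those of the single sorts, are therefore a description only. The log2 change was -2.02 ± 0.41 for Tsc22d3 (adjusted p = 0.0179), 1.73 ± 0.37 for Gadd45b (adjusted p = 0.0179) and -1.30 ± 0.35 for Dusp1 (adjusted p = 0.0470, SE, n = 9 per group). Fos (-1.39 ± 0.45, adjusted p = 0.0797) and Jun (1.13 ± 0.39, adjusted p = 0.0976) missed the threshold, and Ier2 (0.43), Junb (0.18) and Egr1 (-0.17) had the smallest changes. Tsc22d3 and Gadd45b kept an adjusted p under 0.05 without any 1 library, at most 0.0408 for Tsc22d3 and 0.0411 for Gadd45b.

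Dusp1 lost its call in 12 of the 18 omissions, with adjusted p between 0.0558 and 0.0896. It held without CD8 anti-PD-1 replicate 2, CD8 D18 replicates 2 or 3, CD4 anti-PD-1 replicate 3, or DC D18 replicates 1 or 2. The replicate block gave Dusp1 an adjusted p of 0.0572 (limma). A replicate block across sorts ties libraries that share a treatment and a number. With it the adjusted p was 0.0621 for Dusp1, and 0.0245 for Tsc22d3 and for Gadd45b (limma). Leaving out any whole sort ended all 3 calls. A term for the 6 libraries without mt-Co2, mt-Co3 and mt-Atp6 reads ended them too, with -1.77 ± 0.59 for Tsc22d3, 1.01 ± 0.49 for Gadd45b and -1.31 ± 0.52 for Dusp1 (limma, adjusted p = 0.614, 0.669 and 0.614). Anti-PD-1 replicate 3, 1 library in each sort, belongs with the D18 libraries in that split. In normalised reads all 3 D18 libraries lay below it in every sort for Tsc22d3 and for Dusp1. For CD4 Tsc22d3 the margin was 8.08 in D18 replicate 3 against 9.09, both from 14 reads. In the DC sort the 0 Tsc22d3 reads of D18 replicate 2 allow up to 269 CPM, where anti-PD-1 replicate 3 had 234 CPM. Gadd45b was higher in all 3 D18 libraries than in anti-PD-1 replicate 3 in the CD8 and DC sorts. The DC margin was small, 13.0 against 9.94 normalised reads in D18 replicate 1, or 126 against 123 CPM. In the CD4 sort anti-PD-1 replicate 3 lay within the D18 range. The share of all genes placed in these ways against anti-PD-1 replicate 3 was not counted. The monocyte and macrophage marker sum ran from 5428 to 28645 CPM in D18 libraries and from 18689 to 44200 CPM in anti-PD-1 libraries, and its part in these calls was not tested.

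Gadd45b and Tsc22d3 can also be set against each other within a library, where the size factor drops out. There were 8.5, 3.04 and 5.5 reads of Gadd45b per read of Tsc22d3 in CD8 D18 libraries, against 0.216, 0.513 and 0.423 in CD8 anti-PD-1 libraries. The ratio was 39, 5 and 2.43 in CD4 D18 libraries, against 0.594, 0.857 and 2.5 in CD4 anti-PD-1 libraries. It was 3, 4 reads to 0 and 6.25 in DC D18 libraries, against 0.111, 0.0417 and 0.525 in DC anti-PD-1 libraries. Every D18 library thus had more Gadd45b than Tsc22d3 reads, and every anti-PD-1 library fewer except CD4 anti-PD-1 replicate 3, whose 35 and 14 reads gave a ratio above that of CD4 D18 replicate 3. The pair was chosen after its values were seen, so the ratio has no test.

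**Figure D4:**
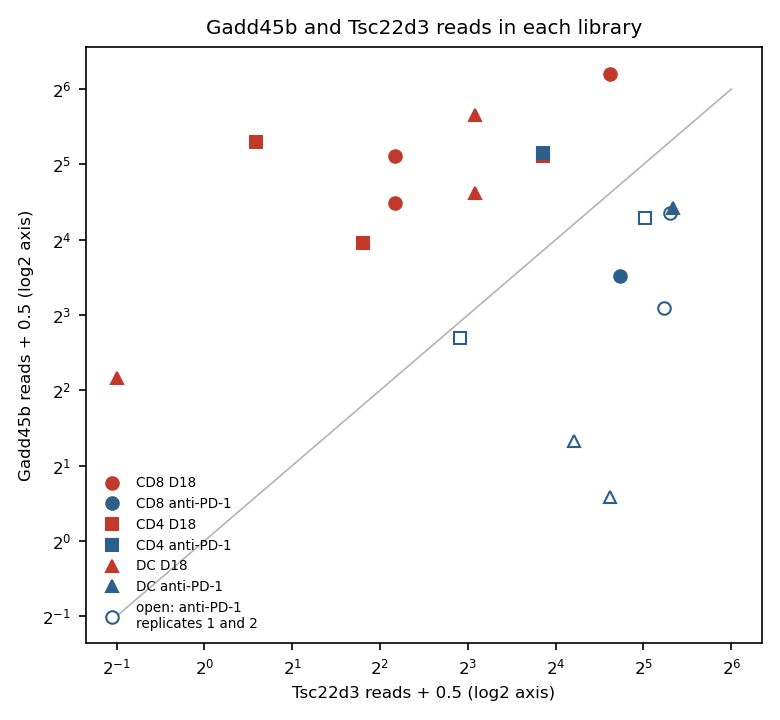
Gadd45b reads (vertical) against Tsc22d3 reads (horizontal) in each library, each with 0.5 added, on log2 axes; the line marks equal reads, symbols the sort, colour the treatment, and open symbols anti-PD-1 replicates 1 and 2. All 9 D18 libraries lie above the line and 8 of the 9 anti-PD-1 libraries below it.

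Whether the change differed between sorts was tested as a difference of changes over all 18 libraries. No gene of the list was called of 7 (CD8 minus CD4), 7 (CD8 minus DC) and 6 (CD4 minus DC) tested, with a smallest adjusted p of 0.995, 0.984 and 0.755 (limma) and 0 at an unadjusted p under 0.05. Over all genes the background was 0% in all 3, and 0.764%, 0.613% and 2.82% at an unadjusted p under 0.05. No difference between sorts was thus called, which does not show that the changes were alike.

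The 10 genes did not move as a block from library to library. Over the 18 libraries, which share their depth and sort differences, the Spearman correlation of a gene's CPM with the mean of the other 9 ran from 0.057 for Fos to 0.61 for Junb. The closest pair was Fos and Dusp1 (rho = 0.73), and the most opposed was Gadd45b and Tsc22d3 (rho = -0.61). Among 1508 other genes the highest correlations with the mean of the 10 were those of Rsrp1 (0.88), Cxcr3 (0.84), Tsc22d4 (0.83), Peli1 (0.80) and Nlrc5 (0.79). Cxcr3 encodes a chemokine receptor of activated T cells and Peli1 a ubiquitin ligase of immune signalling. These are descriptions over 18 libraries, and no p is given.

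Other genes of the same pathways were taken from 7 lists of 86 genes, of which 32, 23 and 21 were tested in the CD8, CD4 and DC sorts and 0 were called in each. Their median log2 change was 0.11, -0.16 and -0.74, beside -0.03, 0.03 and -0.65 over all genes. Among MAP kinase phosphatases and feedback genes, 9, 6 and 5 of 15 were tested, with medians of -0.56, -0.62 and -1.45. Glucocorticoid-induced genes, the class of Tsc22d3, had 3, 3 and 4 of 12 tested, with medians of -0.75, -1.99 and -0.67. They did not move together: 1 was higher and 2 lower in the CD8 and in the CD4 sort, and 2 were higher and 2 lower in the DC sort. The CD4 median is the value of Mt1 (-1.99 ± 1.34). Growth arrest and delayed early genes, the class of Gadd45b, had 7, 5 and 3 of 11 tested, with medians of 0.22, 0.18 and 0.31. Heat-shock and chaperone genes had 8, 5 and 4 of 12 tested, with medians of 0.04, 0.62 and -0.99, so no direction ran through the sorts. AP-1 and ATF partners had 1, 1 and 2 of 10 tested (medians 0.06, -0.87 and -0.95), EGR, NR4A, KLF and MYC factors 2 of 12 in each sort (0.50, 0.58 and 0.38), and MAP kinases and upstream factors 2, 1 and 1 of 14 (0.21, 1.94 and 0.60).

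**Figure D5:**
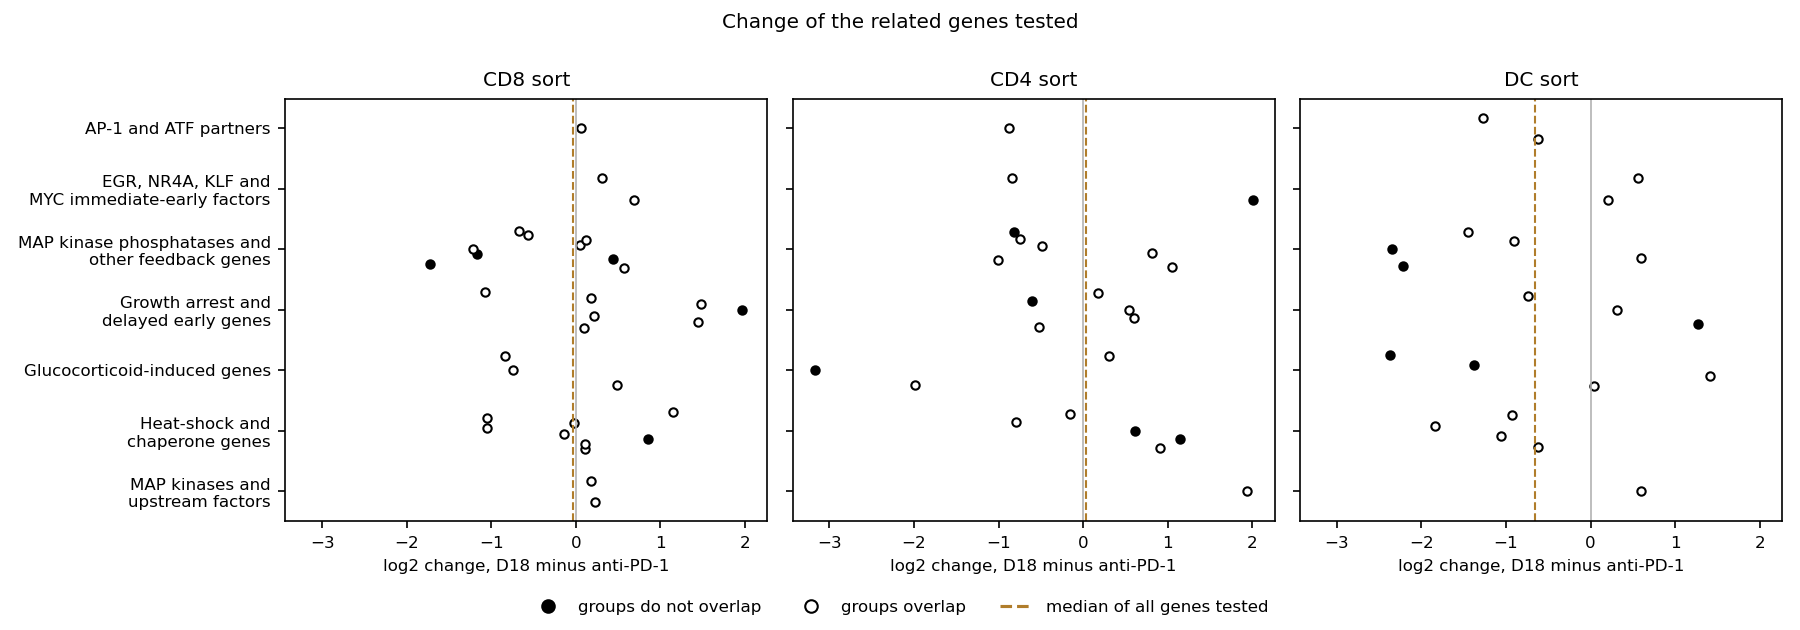
Log2 change, D18 minus anti-PD-1 (horizontal axis), of each tested gene of the 7 related lists (rows) in each sort; filled points have groups that do not overlap, and the dashed line is the median of all genes tested, -0.65 in the DC sort. No point passed an adjusted p of 0.05.

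Among the related genes tested, groups did not overlap for 3 higher and 2 lower with D18 of 32 in the CD8 sort. The counts were 3 and 3 of 23 in the CD4 sort, and 1 and 4 of 21 in the DC sort. Over all genes the shares were 6.88% and 7.65% (CD8), 5.28% and 9.21% (CD4), and 4.18% and 19.9% (DC). The 6 related genes with the smallest unadjusted p in each sort are named. Rgs1, which damps chemokine receptor signals, had 42, 103 and 56 reads in CD8 D18 libraries against 88, 228 and 210 in CD8 anti-PD-1 libraries. In the DC sort it had 54, 6 and 92 reads with D18 against 154, 258 and 250 with anti-PD-1. It did not overlap in either, with limma changes of -1.16 ± 0.50 and -2.35 ± 0.66 (adjusted p = 0.599 and 0.551), the first of which was -0.74 without CD8 D18 replicate 2. Dusp6, the phosphatase of ERK and so a relative of Dusp1, was named in all 3 sorts. It had 1, 71 and 8 reads in CD8 D18 against 29, 55 and 30 in CD8 anti-PD-1 libraries, 5, 10 and 16 in CD4 D18 against 38, 34 and 17 in CD4 anti-PD-1 libraries, and 22, 0 and 28 in DC D18 against 25, 30 and 42 in DC anti-PD-1 libraries. Its changes were -1.72 ± 0.75, -1.01 ± 0.62 and -2.22 ± 1.04 in the CD8, CD4 and DC sorts (limma, adjusted p = 0.603, 0.563 and 0.551), and each leaned on few libraries. The CD8 value of Dusp6 was -0.81 without CD8 D18 replicate 1, its CD4 value -0.033 without the libraries with at most 1 Cd3e read, and its DC value -0.96 without DC D18 replicate 2.

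Gadd45g, a close relative of Gadd45b, had 16, 29 and 10 reads in CD8 D18 libraries against 3, 2 and 9 in CD8 anti-PD-1 libraries. These did not overlap in normalised reads, and the change was 1.96 ± 0.85 (limma, adjusted p = 0.599), or 0.92 with the term for the libraries without mt-Co2, mt-Co3 and mt-Atp6 reads. Sgk1, a kinase gene induced by glucocorticoids, had 0, 0 and 11 reads in CD4 D18 libraries against 25, 28 and 12 in CD4 anti-PD-1 libraries. DC D18 libraries had 20, 2 and 13 Sgk1 reads against 23, 38 and 30 in DC anti-PD-1 libraries. Neither pair overlapped in normalised reads, with changes of -3.18 ± 1.61 and -1.37 ± 0.64 (limma, adjusted p = 0.478 and 0.551), the DC one -0.65 with that term. The CD4 change of Sgk1 was -2.18 without the anti-PD-1 libraries with at most 1 Cd3e read. In CPM its DC groups overlapped, with 179 in D18 replicate 2 (2 reads) against 171 in anti-PD-1 replicate 2. Id2, an inhibitor of helix-loop-helix factors, had 78, 37 and 179 reads in CD4 D18 against 14, 19 and 77 in CD4 anti-PD-1 libraries, a change of 2.0 ± 0.63 without overlap (limma, adjusted p = 0.453), which was 0.87 without the anti-PD-1 libraries with at most 1 Cd3e read.

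The others named had wider errors or smaller changes. CD8 values of the log2 change were 1.48 ± 0.62 for Ier3, -1.22 ± 0.55 for Rgs2 and -1.05 ± 0.51 for Hspa5, the chaperone of the endoplasmic reticulum (limma, adjusted p = 0.599, 0.612 and 0.636). Without CD8 D18 replicate 1 those of Rgs2 and Hspa5 were -0.80 and -0.68, and without CD8 D18 replicate 2 that of Ier3 was 0.94. CD4 values were 1.15 ± 0.53 for the heat-shock protein gene Hsp90aa1, 1.04 ± 0.60 for Dusp2 and -0.82 ± 0.53 for Zfp36, which marks mRNAs for decay (limma, adjusted p = 0.471, 0.530 and 0.606). Without the libraries with at most 1 Cd3e read Hsp90aa1 was at 0.75 and Dusp2 at -0.024, and without CD4 D18 replicate 1 Zfp36 was at -0.49. DC values were -2.37 ± 1.09 for Txnip, -1.84 ± 0.90 for Hspa5 and 1.27 ± 0.75 for Btg1 (limma, adjusted p = 0.551 each), and without the shallow DC D18 replicate 2 they were -1.14, -0.95 and 0.69. In the fit of all 18 libraries 25 of the 86 were tested and 1 was called, a share near the background of 3.36%: Rgs1 fell by 1.33 on the log2 scale (adjusted p = 0.0391). That call was lost in 11 of 18 omissions (adjusted p between 0.0507 and 0.0890) and held without CD8 anti-PD-1 replicate 1, CD8 D18 replicate 3, CD4 anti-PD-1 replicates 2 or 3, CD4 D18 replicates 1 or 2, or DC D18 replicate 2. It was also lost with the replicate block across sorts (adjusted p = 0.0516), with the term for the libraries without mt-Co2, mt-Co3 and mt-Atp6 reads (adjusted p = 0.614) and without any whole sort (adjusted p between 0.163 and 0.232). Dusp6 (-1.65, adjusted p = 0.0721), Gadd45g (1.27, adjusted p = 0.0752) and Sgk1 (-1.77, adjusted p = 0.0769) missed the threshold there.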

How the data were processed

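Bulk RNA of 18 libraries, 3 per sort and treatment, was measured with Smart-Seq2, per the labels' protocols, without strand or molecular identifiers. STAR 2.4.0, HTSeq 0.6.1, DESeq2 and the build mm10 are named per the submitters' processing notes. The deposited tables, 1 per sort, hold log2 values that the authors had normalised, by a transform not given in the sources used here. Genes without a read sit at each table's minimum. When a variance-stabilising transform was undone and each library divided by its smallest positive value, the result was whole reads for 100% of values, within 0.001, with 11170 to 266392 reads per library. Symbols were found for 98.9% of gene IDs.

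Changes were fitted with limma 3.58.1 (R 4.3.3; trend and robust) on log2(normalised reads + 1), in genes averaging 10 normalised reads or more, with Benjamini-Hochberg adjustment over all genes tested and a threshold of 0.05. All tests were two-sided. The planned use of limma was kept although whole reads could be recovered. CPM are recovered reads scaled to a total of 1000000, and levels per kilobase use exon lengths from GENCODE. Python 3.11.15 was used with matplotlib 3.10.9, scipy 1.17.1, pandas 2.3.3 and numpy 2.4.6.

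The 10 genes, the related lists and the marker lists were chosen with earlier results of these data known. The text names all 10 genes in every sort, the 6 related genes with the smallest unadjusted p in each sort, the 5 genes whose CPM followed the mean of the 10 most closely, and markers that bear on what a sort holds. Same-numbered libraries deviated together in the CD8 sort (correlations 0.363, 0.507 and 0.556) and not in the CD4 sort (-0.136, 0.153 and -0.205) or the DC sort (0.0339, -0.0935 and 0.141). No label states that the numbers pair samples. CD8 replicate 2 was the deepest in both treatments (266392 reads with D18, 189711 with anti-PD-1). CD8 replicate 3 had the lowest T cell marker sum in both (2641 and 1854 CPM). The part of these likenesses in the correlations was not tested. Alternatives were pseudocounts of 0.1 and 10, no filter, the deposited log2 values as they stand, limma-voom on recovered reads, scaling to reads of genes that are not mitochondrially encoded, the replicate block, a term for the libraries without mt-Co2, mt-Co3 and mt-Atp6 reads, and omission of libraries. The fit of all 18 libraries and its alternatives were added after seeing the data.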

Additional observations from a re-analysis of the deposited data

How the results depend on the processing

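None of the 10 genes was called in any single sort under any alternative run, and the number called in each difference between sorts was 0 throughout. The counts over all genes moved more. In the CD8 sort 0 genes were called, but 22 without a filter, 1 on the deposited log2 values, 20 with the replicate block and 0 to 2 when 1 library was left out. In the CD4 sort 0 became 29 without a filter and 0 to 19 when 1 library was left out. In the fit of all 18 libraries 38 became 110 with a pseudocount of 10, 74 on the deposited values, 58 with the replicate block, 21 with the replicate block across sorts and 0 with the term for libraries without mt-Co2, mt-Co3 and mt-Atp6 reads. Leaving out 1 library gave 14 to 74 calls there, with 74 without CD8 D18 replicate 3 and 14 without CD4 anti-PD-1 replicate 1. Leaving out the CD8, CD4 or DC sort gave 0. The 3 calls among the 10 genes became 0 with that term and without any sort, and 2 or 3 without 1 library.

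Directions turned in few genes, none of them called. With that term, which in the CD4 sort equals omission of the libraries with at most 1 Cd3e read, CD4 changes became -0.34 for Junb, 0.19 for Egr1, -0.15 for Ier2 and -0.024 for Dusp2. With it DC Egr1 became -0.20, and in the joint fit Junb became -0.18 and Egr1 0.15. Without the CD4 sort the joint fit gave -0.10 for Junb and 0.25 for Egr1. With 1 library left out the change ran from -0.027 to 1.01 for CD8 Jun, -0.11 to 0.34 for CD8 Ier2, -0.082 to 0.68 for CD4 Ier2, -1.24 to 0.30 for DC Junb, -0.0055 to 0.38 for DC Egr1 and -0.29 to 0.023 for Egr1 in the joint fit. The causes were not tested. Limma-voom gave 1.01 for DC Gadd45b. With a pseudocount of 10 Fos passed in the joint fit (-1.15, adjusted p = 0.0446, limma). CPM over reads that are not mitochondrially encoded moved 12 of 60 group means by more than 1 SD. The replicate block, within or across sorts, changed no call among the 10 genes except that of Dusp1 in the joint fit. Omission of the 6 libraries numbered 3 ended that call as well (-1.22, adjusted p = 0.233, limma). At under 10 reads, as for Jund, Nr4a1 and Tsc22d3 in many libraries, a single read moves a value.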
